A study of Mus musculus with 15 samples.

Results

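The genes described here are 9 brakes on the entry of a cell into division: the CDK inhibitors Cdkn2a, Cdkn2b, Cdkn2c, Cdkn2d and Cdkn1b, the tumour suppressor Trp53, and the retinoblastoma (pocket protein) genes Rb1, Rbl1 and Rbl2. They were taken by gene symbol from the RNA-seq count tables, 9 of the 78298 genes listed there, and all 9 passed the filter on low counts that left 17560 genes for testing. The RNA came from small intestinal organoids of female C57BL/6J mice aged 8 to 16 weeks, harvested on day 5 after seeding, in 5 conditions with 3 libraries each. All organoids carried a lentiviral transgene under the L30 promoter, selected with puromycin, so the control is not an untransduced line. Halo-NLS, the control, made a nuclear HaloTag. SOX9-mEGFP_budding and SOX9-Halo_budding made the transcription factor SOX9 joined to mEGFP or to HaloTag and still had buds. SOX9-mEGFP_spheroid and SOX9-Halo_spheroid were the same lines after longer culture, when they had become round, and each carried a second transgene, H2B-mScarletI or H2B-mEGFP respectively. The second transgene was selected with another drug, Geneticin in the SOX9-mEGFP line and Zeocin in the SOX9-Halo line. Passage numbers counted from crypt isolation were 11 for Halo-NLS, 11 for SOX9-mEGFP_budding, 15 for SOX9-Halo_budding, 27 for SOX9-mEGFP_spheroid and 52 for SOX9-Halo_spheroid, each within 2 passages. Morphology, passage and the second transgene with its drug changed together within a line and cannot be told apart. Between the spheroid conditions the line, passage, second transgene and its drug all differed, and only Halo-NLS and SOX9-mEGFP_budding had the same passage. The libraries of a condition are called biological triplicates of a stable line, but whether they came from separate mice, transductions or passages is not given in the sources used here, so the tests measure the spread between these samples, which may be technical.

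A cell commits to dividing when D cyclins with CDK4 or CDK6, and then cyclin E with CDK2, phosphorylate the pocket proteins Rb1, Rbl1 and Rbl2, which otherwise hold E2F factors back from the genes of DNA replication. INK4 inhibitors (p16Ink4a from Cdkn2a, p15 from Cdkn2b, p18 from Cdkn2c, p19Ink4d from Cdkn2d) bind CDK4 and CDK6, whereas p27, from Cdkn1b, acts mainly on cyclin E and A with CDK2. Cdkn2a also encodes p19Arf in another reading frame from another first exon, and p19Arf protects p53, the product of Trp53, by binding its ubiquitin ligase Mdm2. Cdkn2a is kept silent in most young tissues and is known to come on in cells kept in culture for long.

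Cdkn2a (ENSMUSG00000044303) lies on the minus strand of chromosome 4, at chr4:89192708-89212890 in GRCm39. Its first exon for p19Arf, at chr4:89212571-89212890, and its first exon for p16Ink4a, at chr4:89200223-89200429, are spliced to the same exon 2 of 341 bases, so a count over the gene does not separate the transcripts. Both of its promoters, from 250 bases before to 50 bases after the start as RefSeq gives it, are shown with that of Rbl1, a gene known as an E2F target, since the pocket proteins act through E2F sites. Capitals mark an E2F site, searched on both strands as TTTCGCGC, TTTGGCGC, TTTCCCGC or TTTGCCGC.
Cdkn2a, p16Ink4a start, chr4:89200380-89200679, minus strand: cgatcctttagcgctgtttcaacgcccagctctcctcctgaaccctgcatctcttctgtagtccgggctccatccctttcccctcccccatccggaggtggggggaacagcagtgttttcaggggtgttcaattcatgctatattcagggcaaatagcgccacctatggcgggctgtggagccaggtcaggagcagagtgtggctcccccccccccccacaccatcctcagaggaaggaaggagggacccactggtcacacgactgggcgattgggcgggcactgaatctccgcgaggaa
Cdkn2a, p19Arf start, chr4:89212807-89213106, minus strand: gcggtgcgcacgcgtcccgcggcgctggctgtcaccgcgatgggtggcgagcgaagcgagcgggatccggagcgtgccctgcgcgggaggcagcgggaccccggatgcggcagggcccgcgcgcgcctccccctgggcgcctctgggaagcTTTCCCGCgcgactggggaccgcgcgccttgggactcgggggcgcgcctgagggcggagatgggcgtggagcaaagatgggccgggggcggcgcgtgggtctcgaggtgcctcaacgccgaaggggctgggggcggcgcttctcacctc
Rbl1, chr2:157046405-157046704, minus strand: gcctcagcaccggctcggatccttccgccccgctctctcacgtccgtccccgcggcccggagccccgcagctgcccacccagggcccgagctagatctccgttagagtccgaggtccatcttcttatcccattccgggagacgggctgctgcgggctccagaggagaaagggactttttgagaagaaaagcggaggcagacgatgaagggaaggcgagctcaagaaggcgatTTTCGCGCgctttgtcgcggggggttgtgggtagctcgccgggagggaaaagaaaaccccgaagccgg
The sequences are from RefSeq's table for GRCm38.p6, and each matched GRCm39 at 1 place, whose coordinates are given. The p19Arf promoter held an E2F site 99 bases before the start and the Rbl1 promoter 1 at 18 bases before it, while these letters are not in the window at the p16Ink4a start. Of 32544 promoters of this length, 2.28% held such a site. A promoter was found for 8 of the 9 genes. Those not shown, of Cdkn1b, Cdkn2b, Cdkn2c, Cdkn2d, Rbl2 and Trp53, held no such site.

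Libraries held 28062722 to 40559766 reads on genes. Sox9 itself ran from 305 to 769 normalized counts in Halo-NLS and from 1336 to 23654 in the libraries of the SOX9 lines, without overlap. Epithelial markers were high in every library (237837 to 349281 normalized counts summed over 7 genes in Halo-NLS, 191452 to 408610 in the other conditions), and of the markers of stroma, immune cells, endothelium and glia or neurons 3 of 9, 4 of 8, 2 of 5 and 3 of 6 were detected well enough to test. The stromal sum was 274 to 316 in Halo-NLS, 69.3 to 308 in the budding conditions and 39.6 to 69.9 in the spheroids, the immune sum 86.1 to 213 in Halo-NLS and the budding conditions and 113 to 381 in the spheroids, and the endothelial sum at most 118. The glial and neuronal sum was 120 to 278 in Halo-NLS, 217 to 384 in SOX9-mEGFP_budding, 752 to 1263 in SOX9-Halo_budding, 412 to 1266 in SOX9-mEGFP_spheroid and 99.9 to 126 in SOX9-Halo_spheroid. S100b fell within the SOX9-Halo line (log2 change -5.59, adjusted p = 1.1e-05) and had a value of 1.88 in the SOX9-mEGFP line (adjusted p = 0.022). Dcn and Cdh5, markers of stroma and endothelium, had 0 reads in 12 of the 15 libraries each, and Ptprc, which marks immune cells, in 8. Other markers on these lists had reads in all 15. The highest counts were 32 and 287 for Col1a1 and Vim (stroma), 58 for Vwf (endothelium), and 228 and 188 for Cd68 and Csf1r (immune cells). Of the 7 epithelial markers, Vil1 (log2 change -3.15), Epcam (-1.07) and Cldn7 (-1.07) were called lower and Krt18 (1.85) higher in SOX9-Halo_spheroid against SOX9-Halo_budding. Of the 4 tested immune markers, Csf1r (5.67) and Cd68 (1.78) were called higher and Lyz2 (-5.11) and Itgam (-2.31) lower in SOX9-mEGFP_spheroid against SOX9-mEGFP_budding. The part of these shifts in the results was not tested. The Halo-NLS libraries did not look alike: genes with under 44% GC in their exons lay a median 1.07 (log2) below the mean of all libraries in replicate 2 and 0.84 below in replicate 3, against 0.09 above in replicate 1. Of the 9 genes, Rb1 (40.3% GC), Rbl1 (41.6%), Cdkn1b (43.1%) and Rbl2 (43.6%) are in this GC-poor class, so that their differences from Halo-NLS are also given with replicate 1 as the only control library and with the trend of GC content and exon length removed.

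Cdkn2a was close to absent from Halo-NLS and both budding conditions and was abundant in both spheroid conditions, and it was the 1 gene of the 9 called changed between budding and spheroid in either line, beside 16.4% of all genes in the SOX9-mEGFP line and 25.3% in the SOX9-Halo line. Called means an adjusted p of at most 0.01, a change of at least 2-fold and a mean of at least 10 normalized counts. The normalized counts of Cdkn2a (reads scaled for depth) were 1.31, 2.29 and 3.77 in Halo-NLS, 3.64, 5.19 and 5.45 in SOX9-mEGFP_budding, and 3.18, 1.95 and 3.90 in SOX9-Halo_budding. In SOX9-mEGFP_spheroid they were 1553, 1912 and 1129, and in SOX9-Halo_spheroid 1205, 1828 and 1736. All 6 spheroid libraries lay above the 9 others, with no value between 5.45 and 1129, and the ranges of both spheroid conditions overlapped.

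In unscaled reads, Cdkn2a had 6 in the 3 Halo-NLS libraries together, 15 in SOX9-mEGFP_budding, 10 in SOX9-Halo_budding, 4844 in SOX9-mEGFP_spheroid and 4877 in SOX9-Halo_spheroid. After scaling, the level rose 312-fold from budding to spheroid in the SOX9-mEGFP line (95% exact interval 189 to 558, counting error only) and 536-fold in the SOX9-Halo line (291 to 1118). The quasi-likelihood test of edgeR gave adjusted p = 6.5e-09 and 1.2e-09 for these changes, where adjusted here and for every other gene is by Benjamini-Hochberg over the 17560 genes tested. Against Halo-NLS, which both comparisons share, the ratio was 618 (284 to 1686) in SOX9-mEGFP_spheroid and 656 (301 to 1789) in SOX9-Halo_spheroid. These calls held under every alternative run, with every library left out in turn included.

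Between the budding conditions and the control, no difference in Cdkn2a was detectable at this depth: the ratio to Halo-NLS was 1.98 (0.726 to 6.23) in SOX9-mEGFP_budding and 1.22 (0.403 to 4.10) in SOX9-Halo_budding. The spheroids at passage 27 and passage 52 were not separated by the test either, with a log2 difference of 0.05 (95% interval -0.47 to 0.58, adjusted p = 0.91, SOX9-Halo_spheroid against SOX9-mEGFP_spheroid). The order of the levels thus had a single gap, between the spheroid conditions and the others. Within a line the passages sampled were 11 and 27 (SOX9-mEGFP) and 15 and 52 (SOX9-Halo), so the passage of the rise is not given more closely. Morphology and the second transgene changed across the same gap. In bulk RNA, a few cells with much of a transcript and many cells with little of it cannot be told apart.

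**Figure D1:**
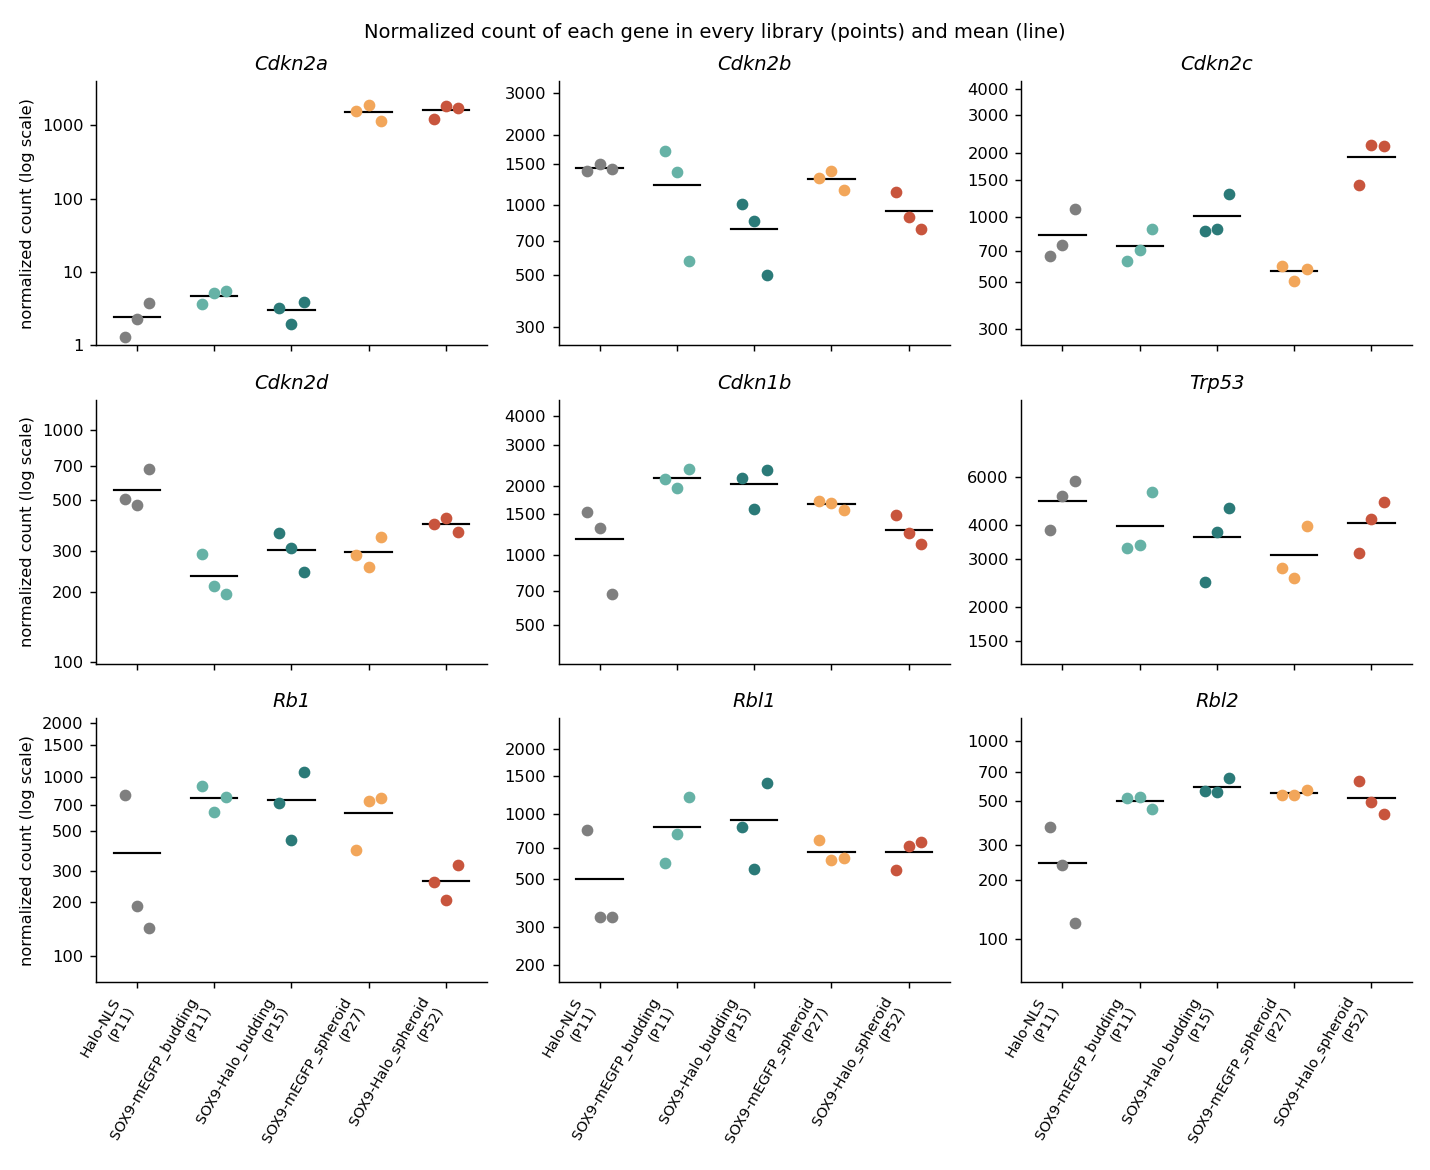
Normalized counts of the 9 genes (log axis, its range set for each gene) in every library (points), with the mean of each condition (line) and the conditions in order of passage number (P). Cdkn2a lies at 1.31 to 5.45 in the 9 control and budding libraries and at 1129 to 1912 in the 6 spheroid libraries.

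Cdkn2b, which encodes p15 and lies upstream of Cdkn2a at a gap of 10313 bases (chr4:89223204-89229276, minus strand), was not called where Cdkn2a was. It had normalized counts of 1401, 1501 and 1425 in Halo-NLS, 1696, 1383 and 575 in SOX9-mEGFP_budding, 1006, 853 and 502 in SOX9-Halo_budding, 1304, 1395 and 1162 in SOX9-mEGFP_spheroid, and 1139, 892 and 788 in SOX9-Halo_spheroid. It was expressed in every library and its budding and spheroid ranges overlapped in both lines. The log2 change from budding to spheroid was 0.08 (95% interval -0.62 to 0.78) in the SOX9-mEGFP line and 0.25 (-0.45 to 0.96) in the SOX9-Halo line, with no call in any comparison. Per kb of exon, Cdkn2a stood at 0.00217 to 0.0220 of the level of Cdkn2b in the control and budding libraries and at 2.26 to 5.12 times that level in the spheroids.

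Other genes within 1 Mb of Cdkn2a rose as well. Of the 11 tested neighbours 9 lay on its downstream side and 2 on its upstream side, and those called from budding to spheroid were among the 9. Of the 11, 5 were called higher and 0 lower in SOX9-mEGFP_spheroid against SOX9-mEGFP_budding, and 6 higher and 0 lower in SOX9-Halo_spheroid against SOX9-Halo_budding. Among all genes 8.55% and 10.5% were called higher and 7.88% and 14.7% lower in these comparisons, and the median log2 change over 1002 genes of chromosome 4 was -0.05 and -0.06. In SOX9-mEGFP_budding and SOX9-Halo_budding against Halo-NLS, edgeR and DESeq2 called 0 of the 11, with 1 and 2 at an unadjusted p under 0.05. Of all genes edgeR called 2.76% and 3.75% there.

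The nearest of them with a protein was Mtap, the methylthioadenosine phosphorylase of methionine salvage, at a gap of 93388 bases. In normalized counts it stood at 928, 975 and 1277 in SOX9-mEGFP_budding, 940, 970 and 2070 in SOX9-Halo_budding, 3048, 2627 and 3053 in SOX9-mEGFP_spheroid, and 4071, 5299 and 7165 in SOX9-Halo_spheroid. No spheroid library of either line overlapped the budding ones, with log2 changes of 1.46 (SE 0.31, adjusted p = 0.0021) and 2.05 (SE 0.31, adjusted p = 7.9e-05).

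The long non-coding RNA Wincr1, at a gap of 189802 bases, stood at 4.86, 4.15 and 2.34 normalized counts in SOX9-mEGFP_budding and at 6.36, 9.73 and 5.85 in SOX9-Halo_budding. In the spheroids it stood at 415, 555 and 247 (SOX9-mEGFP) and at 293, 304 and 286 (SOX9-Halo). Gm12602, Gm49890 and Gm49891, also non-coding, were called higher in both lines, Hacd4 in the SOX9-Halo line (log2 change 3.44, adjusted p = 0.0012), and Gm49891 overlaps the span of Wincr1 on the other strand, where reads on both were not counted for either. On the upstream side, Gm12610, which begins 158 bases from Cdkn2a on the other strand, was not called (log2 0.96, adjusted p = 0.55, and 2.06, adjusted p = 0.16), as Cdkn2b was not. Klhl9 and the pseudogene Mrpl48-ps, on the downstream side, were not called in any comparison, and Focad was called against Halo-NLS alone.

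**Figure D2:**
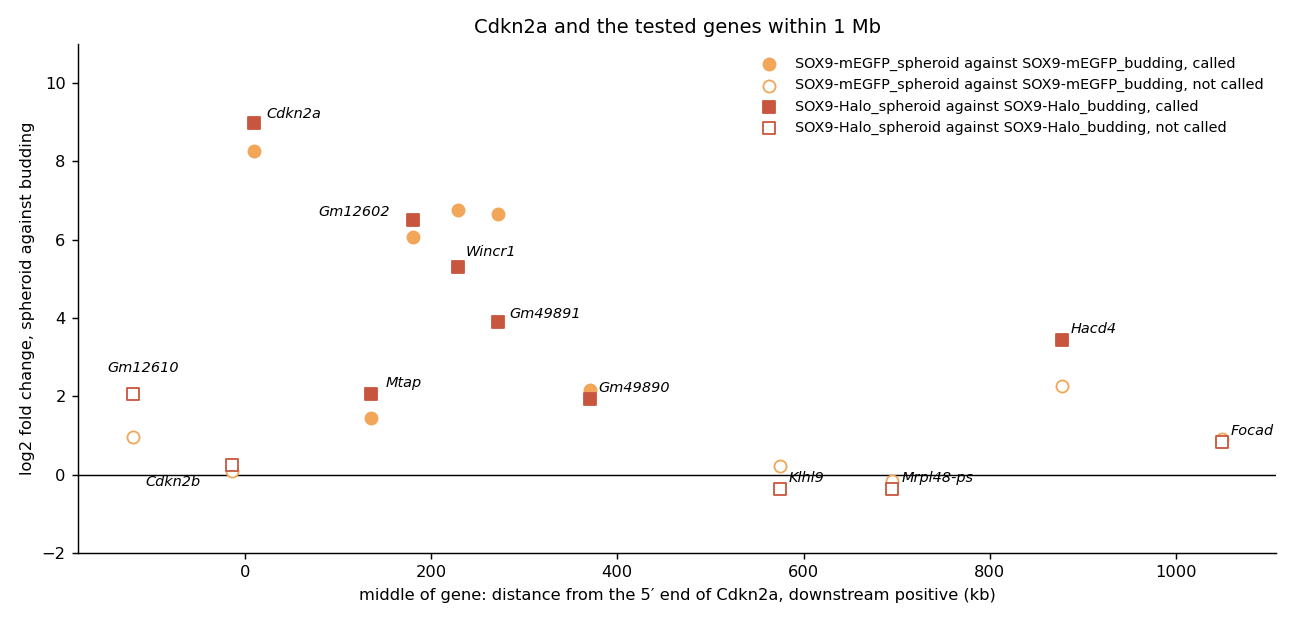
Log2 fold change from budding to spheroid (vertical axis) of Cdkn2a and the 11 tested genes within 1 Mb of it, by the distance of the middle of each gene from the 5′ end of Cdkn2a in kb, downstream positive. Circles are the SOX9-mEGFP line and squares the SOX9-Halo line, filled where the gene was called. The filled neighbours are among the 9 downstream, and Cdkn2b, 1 of the 2 upstream, lies at 0.08 and 0.25.

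Cdkn2c, the p18 gene (chr4:109517957-109524386, minus strand), differed between the 2 spheroid conditions. It had 657, 740 and 1091 normalized counts in Halo-NLS, 624, 706 and 886 in SOX9-mEGFP_budding, 868, 884 and 1292 in SOX9-Halo_budding, 595, 506 and 577 in SOX9-mEGFP_spheroid, and 1420, 2173 and 2153 in SOX9-Halo_spheroid. The passage 52 spheroids held the 3 highest libraries and the passage 27 spheroids the 3 lowest. SOX9-Halo_spheroid exceeded SOX9-mEGFP_spheroid by 1.78 on the log2 scale (SE 0.26, adjusted p = 1.1e-04), a call that held under every alternative. Within the SOX9-Halo line Cdkn2c rose by 0.92 (SE 0.25, adjusted p = 0.0084), which is under the 2-fold threshold for a call, and within the SOX9-mEGFP line the change was -0.40 (adjusted p = 0.28). The difference between these changes was 1.32 (SE 0.36, adjusted p = 0.023) and did not pass the threshold of 0.01. With the replicate number as a block it did (1.30, adjusted p = 0.0060). The rise of SOX9-Halo_spheroid over Halo-NLS of 1.21 (SE 0.25, adjusted p = 0.0011) was not called once the trend of GC content and exon length, fitted within each library, was removed (0.71, adjusted p = 0.045) or when only the compared libraries were fitted (1.17, adjusted p = 0.012). In SOX9-mEGFP_spheroid against Halo-NLS the value was -0.57 (adjusted p = 0.073) and was not called. Over the alternatives it ran from -1.19 to -0.29, with a lowest adjusted p of 0.0029, so this comparison too depended on the processing.

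Cdkn2d, the p19Ink4d gene (chr9:21199700-21202727, minus strand), was highest in the control. The normalized counts of the Halo-NLS libraries were 503, 475 and 675, against 293, 213 and 196 in SOX9-mEGFP_budding, 360, 310 and 244 in SOX9-Halo_budding, 290, 256 and 347 in SOX9-mEGFP_spheroid, and 394, 417 and 365 in SOX9-Halo_spheroid. Every Halo-NLS library lay above every SOX9 library. Against Halo-NLS it fell by 1.24 on the log2 scale in SOX9-mEGFP_budding (SE 0.24, adjusted p = 0.0057), the 1 comparison at equal passage, and by 0.89 in SOX9-mEGFP_spheroid (SE 0.24, adjusted p = 0.0065, under 2-fold). The values in SOX9-Halo_budding and SOX9-Halo_spheroid were -0.85 (adjusted p = 0.025) and -0.49 (adjusted p = 0.098). The call in SOX9-mEGFP_budding was lost without Halo-NLS replicate 2 (adjusted p = 0.012) or 3 (0.024), without SOX9-mEGFP_budding replicate 2 (0.032) or 3 (0.034), and narrowly without SOX9-mEGFP_spheroid replicate 1 or SOX9-Halo_spheroid replicate 2 or 3 (0.0104 to 0.0111). With the GC and length trend removed the value was -0.91 (adjusted p = 0.013). The GC-rich Cdkn2d (56.3%) was placed 0.36 and 0.43 above its mean by that trend in Halo-NLS replicates 2 and 3.

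Summed per kb of exon, the 4 INK4 genes changed in make-up. Cdkn2a gave 0.206% ± 0.0852 (SD, n = 3) of the sum in Halo-NLS, 0.639% in SOX9-mEGFP_budding, 0.417% in SOX9-Halo_budding, 63.2% (57.0 to 68.6) in SOX9-mEGFP_spheroid and 60.1% (53.9 to 63.6) in SOX9-Halo_spheroid. Cdkn2b was the leading member in the control and budding conditions with mean shares of 44.7% to 60.5%, against 23.3% and 15.9% in the spheroids. The share of Cdkn2c was 4.41% in SOX9-mEGFP_spheroid and 13.3% in SOX9-Halo_spheroid.

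**Figure D3:**
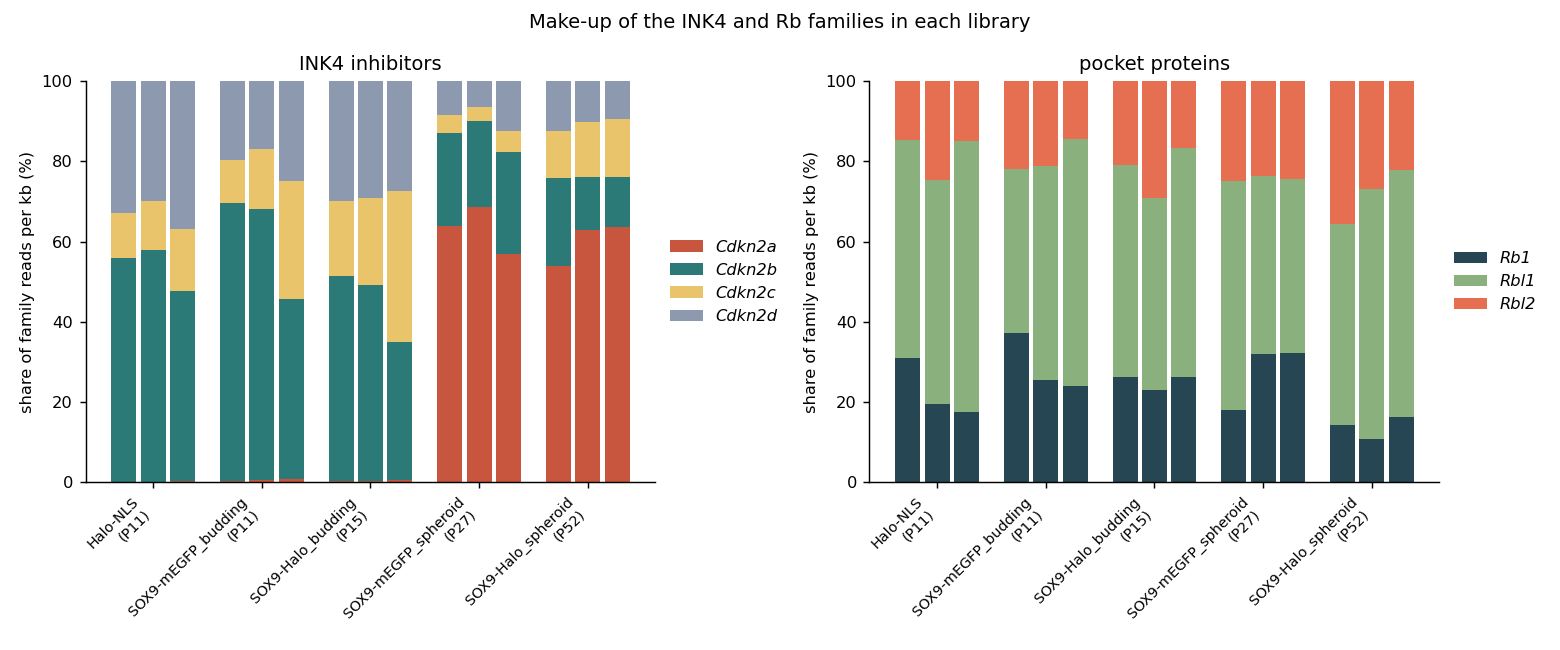
Share of each gene (percent of the summed reads per kb of exon) in the 4 INK4 genes (left) and the 3 pocket protein genes (right), with 1 stacked bar per library and conditions in order of passage (P). Cdkn2a takes 53.9% to 68.6% of the INK4 sum in the spheroid libraries, and Rb1 10.9% to 16.3% of the pocket protein sum in SOX9-Halo_spheroid. The share of Rbl2 can be understated, since 44.4% of its exon bases are shared with other genes.

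Cdkn1b, the p27 gene (chr6:134897364-134902476, plus strand), was not called in any comparison. It stood at 1540, 1305 and 680 normalized counts in Halo-NLS, 2140, 1954 and 2349 in SOX9-mEGFP_budding, 2164, 1579 and 2339 in SOX9-Halo_budding, 1720, 1684 and 1570 in SOX9-mEGFP_spheroid, and 1485, 1249 and 1122 in SOX9-Halo_spheroid. All SOX9 libraries of the budding conditions lay above Halo-NLS, and all spheroid libraries of the SOX9-Halo line lay below its budding ones. The log2 values were 0.87 (adjusted p = 0.038) and 0.79 (adjusted p = 0.045) for SOX9-mEGFP_budding and SOX9-Halo_budding against Halo-NLS and -0.66 (adjusted p = 0.052) between spheroid and budding in the SOX9-Halo line. Without Halo-NLS replicate 1, the library with the highest Cdkn1b of its group, the value in SOX9-mEGFP_budding was 1.12 (adjusted p = 0.0074). With replicate 1 as the only control library the values in SOX9-mEGFP_budding and SOX9-Halo_budding were 0.47 and 0.38 (adjusted p = 0.51 for both), and with the GC and length trend removed 0.33 (adjusted p = 0.34) and 0.21 (adjusted p = 0.55).

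The other CIP/KIP inhibitors differed from each other. Cdkn1c, the imprinted p57 gene, fell from budding to spheroid, with log2 changes of -2.73 (adjusted p = 2.5e-04) and -3.57 (adjusted p = 1.7e-05), from 85, 110 and 141 to 25.7, 13.0 and 11.4 normalized counts in the SOX9-mEGFP line and from 171, 132 and 104 to 5.92, 12.3 and 15.3 in the SOX9-Halo line. Cdkn1a, the p21 gene and a p53 target, was abundant throughout, between 3139 and 14639 normalized counts, and was not called (0.21 and 1.07 from budding to spheroid, adjusted p = 0.71 and 0.018). It stood at 14609, 14639 and 11092 in Halo-NLS, 11787, 7297 and 4404 in SOX9-mEGFP_budding and 4795, 6006 and 3139 in SOX9-Halo_budding. In the spheroids it stood at 10358, 7182 and 9711 (SOX9-mEGFP) and 13201, 8598 and 7533 (SOX9-Halo). Both Cdkn1a and Cdkn1c had lower means in each budding condition than in Halo-NLS, at an unadjusted p under 0.05. Of the 2, edgeR called 0 and DESeq2 1 each time. Of 10 tested genes that act on p27 stability, edgeR and DESeq2 called 0 in the SOX9-mEGFP line (3 at an unadjusted p under 0.05, beside 16.4% of all genes called) and 2 in the SOX9-Halo line (beside 25.3%): Cks1b, a partner of the p27 ligase, rose by 1.36 and the kinase gene Pim1 fell by 1.58 (both chosen after their values were seen). The 3 most abundant, Skp1, Rbx1 and Cul1, subunits of the p27 ligase, lay between -0.26 and 0.26 in both lines.

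Trp53 (chr11:69469669-69482701, plus strand) was not called in any comparison. Normalized counts of Trp53 were 3829, 5144 and 5804 in Halo-NLS, 3291, 3378 and 5289 in SOX9-mEGFP_budding, 2471, 3765 and 4645 in SOX9-Halo_budding, 2794, 2551 and 3987 in SOX9-mEGFP_spheroid, and 3158, 4230 and 4890 in SOX9-Halo_spheroid. Neighbours in the order of these levels overlapped throughout. The log2 change from budding to spheroid was -0.36 (95% interval -0.96 to 0.24) in the SOX9-mEGFP line and 0.17 (-0.42 to 0.77) in the SOX9-Halo line, and the largest difference from Halo-NLS was -0.66 (adjusted p = 0.063, SOX9-mEGFP_spheroid). The p53 relatives Trp63 and Trp73 were listed but too low to test.

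Many genes known to be switched on by p53 were called higher in the spheroids. Of 25 such genes, 8 were called higher and 1 lower in SOX9-mEGFP_spheroid against SOX9-mEGFP_budding (median log2 change 0.98 against -0.03 over all genes), and 17 higher and 1 lower in SOX9-Halo_spheroid against SOX9-Halo_budding (1.60 against -0.05). Of all genes, 8.55% and 10.5% were called higher and 7.88% and 14.7% lower in these comparisons. Against Halo-NLS, 1 was called higher in each budding condition (Plk2, chosen after its value was seen), 13 higher and 2 lower in SOX9-mEGFP_spheroid, and 19 higher and 1 lower in SOX9-Halo_spheroid. Against these stand 1.99% and 2.49% of all genes called higher in SOX9-mEGFP_budding and SOX9-Halo_budding and, in SOX9-mEGFP_spheroid and SOX9-Halo_spheroid, 15.3% and 13.6% called higher and 12.1% and 15.3% lower.

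Of the 3 most abundant targets, Ccng1 (cyclin G1) rose by 1.58 (SE 0.35, adjusted p = 0.0030) in the SOX9-mEGFP line and by 2.07 (SE 0.36, adjusted p = 2.5e-04) in the SOX9-Halo line. The normalized counts of Ccng1 were 3692, 4099 and 4346 in SOX9-mEGFP_budding and 12566, 13770 and 10075 in SOX9-mEGFP_spheroid, and 5436, 2543 and 7209 in SOX9-Halo_budding and 22130, 22801 and 18750 in SOX9-Halo_spheroid. Perp, a desmosomal target, rose by 1.15 and 1.73, and the third was Cdkn1a. Sesn1, a stress-response target, was the 1 gene that was called lower in both lines (-1.46 and -1.64), and the death receptor gene Fas was called higher in the SOX9-Halo line by 2.54 more than in the SOX9-mEGFP line (test of the difference, adjusted p = 0.0015), both chosen after their values were seen. Mdm2, the p53 ligase gene that p53 itself switches on, rose by 1.59 in the SOX9-Halo line (adjusted p = 4.8e-04), while the value in the SOX9-mEGFP line was 0.87 (adjusted p = 0.036). It was the 1 gene of 11 p53 regulators called within a line, beside 16.4% (SOX9-mEGFP) and 25.3% (SOX9-Halo) of all genes. In the SOX9-mEGFP line edgeR and DESeq2 called 0, with 1 at an unadjusted p under 0.05, and the other abundant regulators Usp7 and Cop1 lay between -0.54 and -0.18 (adjusted p of at least 0.050).

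Rb1 (chr14:73421113-73563507, minus strand), the founding pocket protein, was lowest in the passage 52 spheroids and spread widely in the control. Its normalized counts were 793, 192 and 143 in Halo-NLS, 892, 635 and 769 in SOX9-mEGFP_budding, 713, 444 and 1060 in SOX9-Halo_budding, 391, 732 and 763 in SOX9-mEGFP_spheroid, and 258, 205 and 324 in SOX9-Halo_spheroid. All SOX9-Halo_spheroid libraries lay below all libraries of the other SOX9 conditions, but within the range of Halo-NLS. Between spheroid and budding the log2 difference was -1.49 in the SOX9-Halo line (SE 0.53, adjusted p = 0.034), which was not called. It was called with no filter on low counts (adjusted p = 5.1e-05), in a fit of the compared libraries alone (0.0064), with the GC and length trend removed (-1.26, adjusted p = 0.0042) and without Halo-NLS replicate 1 (adjusted p = 0.0022). In the SOX9-mEGFP line the difference was -0.28 (adjusted p = 0.75).

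The differences of Rb1 from Halo-NLS turned on which control libraries were used. With all 3 they were 1.03, 0.98, 0.74 and -0.52 in the SOX9-mEGFP and SOX9-Halo budding and then spheroid conditions (in the order of passage), none called. Without Halo-NLS replicate 1 the first 3 were called, at 2.19 (adjusted p = 0.0016), 2.14 (0.0017) and 1.91 (0.0012), and with replicate 1 as the only control library they were -0.062, -0.12 and -0.39. The value in SOX9-Halo_spheroid ran from -1.62 to 0.65 over the alternatives. The GC and length trend placed Rb1 1.30 and 1.07 below its mean in Halo-NLS replicates 2 and 3, and its part in these differences was not tested beyond the fit with the trend removed.

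Rbl1, the p107 gene (chr2:156987813-157046475, minus strand), whose promoter is shown above with its E2F site, had normalized counts of 843, 333 and 336 in Halo-NLS, 598, 811 and 1203 in SOX9-mEGFP_budding, 875, 559 and 1394 in SOX9-Halo_budding, 759, 617 and 628 in SOX9-mEGFP_spheroid, and 551, 711 and 745 in SOX9-Halo_spheroid. Neighbours in the order of its levels overlapped throughout, and no comparison was called. Its highest log2 difference was 0.90 in SOX9-Halo_budding against Halo-NLS (adjusted p = 0.11), or 1.50 (adjusted p = 0.0075) without Halo-NLS replicate 1. With replicate 1 as the only control library it was 0.14 (adjusted p = 0.92), and with the GC and length trend removed 0.17 (adjusted p = 0.63).

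Rbl2, the p130 gene of resting cells (chr8:91796664-91850492, plus strand), was lowest in Halo-NLS. Its normalized counts were 370, 238 and 121 there, 516, 521 and 455 in SOX9-mEGFP_budding, 558, 554 and 656 in SOX9-Halo_budding, 533, 535 and 568 in SOX9-mEGFP_spheroid, and 630, 496 and 430 in SOX9-Halo_spheroid. No SOX9 library overlapped the control. From budding to spheroid the log2 difference was 0.13 (95% interval -0.51 to 0.77) in the SOX9-mEGFP line and -0.18 (-0.82 to 0.45) in the SOX9-Halo line. Against Halo-NLS it rose by 1.17 in SOX9-mEGFP_spheroid (SE 0.31, adjusted p = 0.0058) and by 1.10 in SOX9-Halo_spheroid (SE 0.30, adjusted p = 0.0081), and the values in the budding conditions were 1.04 (adjusted p = 0.037) and 1.28 (adjusted p = 0.015), the latter 1.35 (adjusted p = 0.0094) with the replicate number as a block.

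These 2 calls depended on the control libraries. With the GC and length trend removed the values in the spheroids were 0.40 (adjusted p = 0.18) and 0.53 (adjusted p = 0.078), and with Halo-NLS replicate 1 as the only control library 0.51 and 0.46. In the budding conditions the values were 0.42 and 0.62 with the trend removed, 0.42 and 0.66 with replicate 1 as the only control library, and 1.47 (adjusted p = 0.0021) and 1.72 (adjusted p = 7.5e-04) without replicate 1. The SOX9-mEGFP_spheroid call was lost without Halo-NLS replicate 2 or 3 or any 1 replicate of SOX9-mEGFP_spheroid (adjusted p = 0.0121 to 0.0197), and that of SOX9-Halo_spheroid without any of 12 libraries, all but Halo-NLS replicate 1, SOX9-mEGFP_budding replicate 3 and SOX9-Halo_budding replicate 2 (adjusted p up to 0.037). Of the exon bases of Rbl2, 44.4% also belong to other genes, mostly Aktip on the opposite strand, and reads there were not counted for either gene where they fell on both. Genes of chromosome 8 as a whole had a median log2 difference of 0.33 in SOX9-Halo_spheroid against Halo-NLS and of 0.44 against SOX9-Halo_budding.

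Within the pocket protein sum per kb of exon, Rbl1 was the leading member in all conditions, with mean shares of 48.3% to 59.2%. The whole exon length was the divisor, though 44.4% of the exon bases of Rbl2 are shared with other genes. In Rb1 and Rbl1 7.43% and 4.63% are shared, so these shares can understate Rbl2 against the others. The share of Rb1 was 26.2%, 23.0% and 26.4% in SOX9-Halo_budding and 14.3%, 10.9% and 16.3% in SOX9-Halo_spheroid, without overlap, a difference of -11.4 percentage points. An exact two-sided permutation test, added after the values were seen, gave p = 0.1, the smallest that 3 against 3 libraries allow, and 0.3 after adjustment over 6 tests. In the SOX9-mEGFP line the difference was -1.49 points (exact p = 1, adjusted p = 1).

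**Figure D4:**
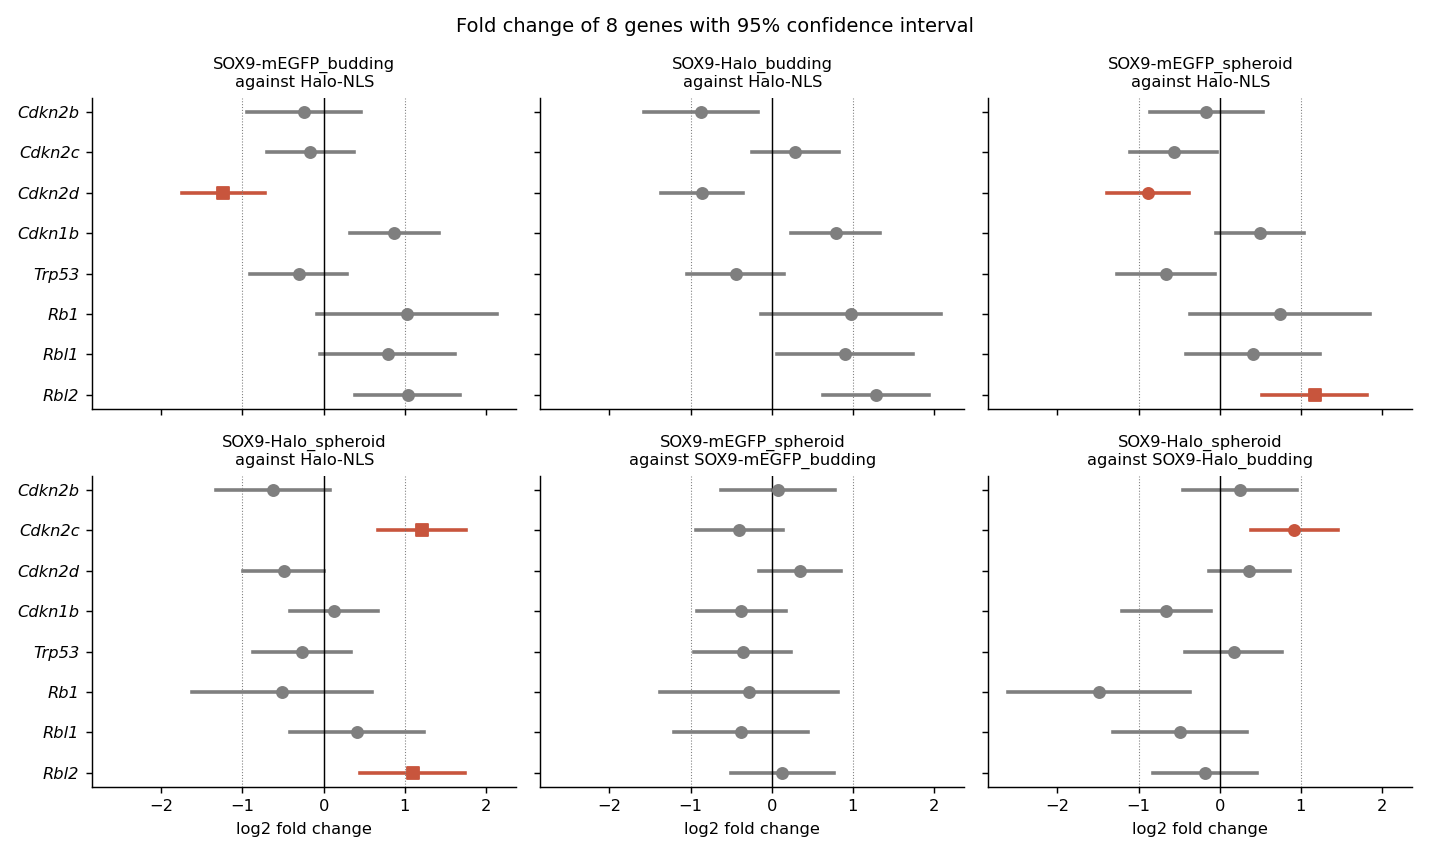
Log2 fold change (horizontal axis) of the 8 genes other than Cdkn2a with its 95% confidence interval (bar) in 6 comparisons. Squares are called genes, red circles genes past the adjusted p of 0.01 but under 2-fold, and grey circles the rest. From budding to spheroid the 8 genes lie between -1.49 and 0.92, with no square, and the dotted lines mark a 2-fold change.

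Calls among the 9 genes are given here beside the share of all genes called. Against Halo-NLS, 1 was called in SOX9-mEGFP_budding (Cdkn2d, 2.76% of all genes called), 2 in SOX9-mEGFP_spheroid (Cdkn2a and Rbl2, 27.5%) and 3 in SOX9-Halo_spheroid (Cdkn2a, Cdkn2c and Rbl2, 28.9%). In SOX9-Halo_budding edgeR called 0 (3.75% of all genes), with 5 at an unadjusted p under 0.05 and 1 called by DESeq2. From budding to spheroid 1 was called in each line, Cdkn2a, beside 16.4% (SOX9-mEGFP) and 25.3% (SOX9-Halo) of all genes. Between the lines, edgeR called 0 among budding organoids (0.456% of all genes, 0 at an unadjusted p under 0.05, 0 by DESeq2) and Cdkn2c among spheroids (13.2%). For the difference in the change from budding to spheroid edgeR called 0 (7.39% of all genes), with 1 at an unadjusted p under 0.05 and 1 called by DESeq2. Libraries of the groups compared did not overlap for 4 of the 9 from budding to spheroid in the SOX9-mEGFP line and for 5 in the SOX9-Halo line, where 46% and 52.8% of all genes did not. The median log2 change of the 9 was -0.28 and 0.17 in these comparisons, against -0.03 and -0.05 over all genes.

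Of the D cyclin genes, whose products with CDK4 and CDK6 are the target of the INK4 proteins, Ccnd1 and Ccnd2 rose from budding to spheroid in both lines and Ccnd3 in the SOX9-Halo line. Ccnd1 (cyclin D1) rose from 1199, 1720 and 2686 to 7708, 8700 and 7830 normalized counts in the SOX9-mEGFP line (log2 2.11, adjusted p = 2.6e-04), and from 775, 1091 and 1899 to 13655, 14682 and 15728 in the SOX9-Halo line (3.55, adjusted p = 1.6e-06). Ccnd2 rose by 2.61 and 1.48, a difference between the lines of -1.13 (adjusted p = 0.0086), and Ccnd3 by 1.12 in the SOX9-Halo line (adjusted p = 6.7e-04), with 0.57 (adjusted p = 0.065) in the SOX9-mEGFP line. Of the 5 genes, 2 were called higher in the SOX9-mEGFP line and 3 in the SOX9-Halo line, and 0 lower, beside 8.55% and 10.5% of all genes called higher and 7.88% and 14.7% lower. Ccnd2 was already called higher in SOX9-Halo_budding against Halo-NLS (1.29, adjusted p = 9.6e-04). Cdk4 and Cdk6 were called in neither line, though in SOX9-mEGFP_spheroid against Halo-NLS Cdk4 fell by 1.23 and Cdk6 rose by 1.53. Of 11 genes of cyclins E and A with CDK2 and CDK1, edgeR and DESeq2 called 0 in each comparison, with 0 to 4 at an unadjusted p under 0.05. Of all genes edgeR called 0.456% to 28.9%, depending on the comparison, with 16.4% and 25.3% from budding to spheroid. The most abundant were Cdk1 (-0.02 and 0.57), Ccna2 (-0.27 and 0.04) and the phosphatase gene Cdc25a, which fell by 0.77 in the SOX9-Halo line (adjusted p = 0.0034, under 2-fold).

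Of 10 E2F and DP factor genes, E2f2 fell in both lines, from 3786, 3570 and 2247 to 930, 545 and 793 normalized counts (log2 -2.08, adjusted p = 1.0e-04) and from 2957, 4506 and 2611 to 150, 191 and 208 (-4.19, adjusted p = 1.4e-07). The fall was larger in the SOX9-Halo line by 2.11 (adjusted p = 0.0031). Tfdp2, an E2F partner, was called lower in the SOX9-Halo line (-1.65) and Tfdp1 higher in SOX9-Halo_spheroid against Halo-NLS (1.17), the former chosen after its value was seen. E2f4, the third of the most abundant, rose in the SOX9-Halo line by 0.77 (adjusted p = 0.0075, under 2-fold) against a value of -0.21 in the SOX9-mEGFP line. Of 28 E2F target genes of DNA replication, edgeR and DESeq2 called 0 in the SOX9-mEGFP line (4 at an unadjusted p under 0.05, beside 16.4% of all genes called), and edgeR called 1, Rrm1 (1.18), and DESeq2 2 in the SOX9-Halo line (beside 25.3%). The other 2 most abundant were Pcna, the replication clamp gene (-0.89, adjusted p = 0.0061, under 2-fold, and -0.27, adjusted p = 0.36), and Top2a, a topoisomerase gene (-0.10 and -0.31, adjusted p = 0.94 and 0.73). The medians were -0.36 and 0.22. Of 8 genes of the DREAM and MuvB complex, in which Rbl1 and Rbl2 repress cell cycle genes, edgeR and DESeq2 also called 0 in each comparison. Between 0 and 4 of them had an unadjusted p under 0.05, beside 0.456% to 28.9% of all genes called by edgeR. The 3 most abundant, Rbbp4, Dyrk1a and Mybl2, had log2 changes of -0.23, -0.14 and 0.18 in the SOX9-mEGFP line and 0.04, -0.58 and 1.25 in the SOX9-Halo line (adjusted p of at least 0.039).

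Genes known to act on the Cdkn2a locus, mainly Polycomb subunits that silence it and the ETS and ID factors, were called in both directions. The background over all genes was 8.55% called higher in the SOX9-mEGFP line, while within the SOX9-Halo line 10.5% were higher and 14.7% were lower. Of 21 regulators tested, 2 were called higher in the SOX9-mEGFP line, the activator gene Ets1 (1.42, adjusted p = 0.0043) and Id1, an inhibitor of such activators (2.44, adjusted p = 5.6e-07). In the SOX9-Halo line Phc2, a Polycomb subunit, was called higher (1.28, adjusted p = 2.7e-04) and Ets2 lower (-1.02, adjusted p = 0.0085). The most abundant besides these, the demethylase gene Kdm6b, stood at -0.36 and 0.21 (adjusted p = 0.74 and 0.82). The difference between the lines passed the test for Id1 (-1.85, adjusted p = 2.7e-04). Against Halo-NLS, 2 of the 21 were called higher and 1 lower in SOX9-mEGFP_spheroid, the lower being the Polycomb gene Cbx2 (-1.41, adjusted p = 7.9e-04). In SOX9-Halo_spheroid 0 were called higher and 1 lower, the Polycomb gene Cbx7 (-1.40, adjusted p = 6.0e-04). Of all genes, 15.3% and 13.6% were called higher there and 12.1% and 15.3% lower. Ets1, Id1, Cbx2 and Cbx7 were named after their values were seen.

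**Figure D5:**
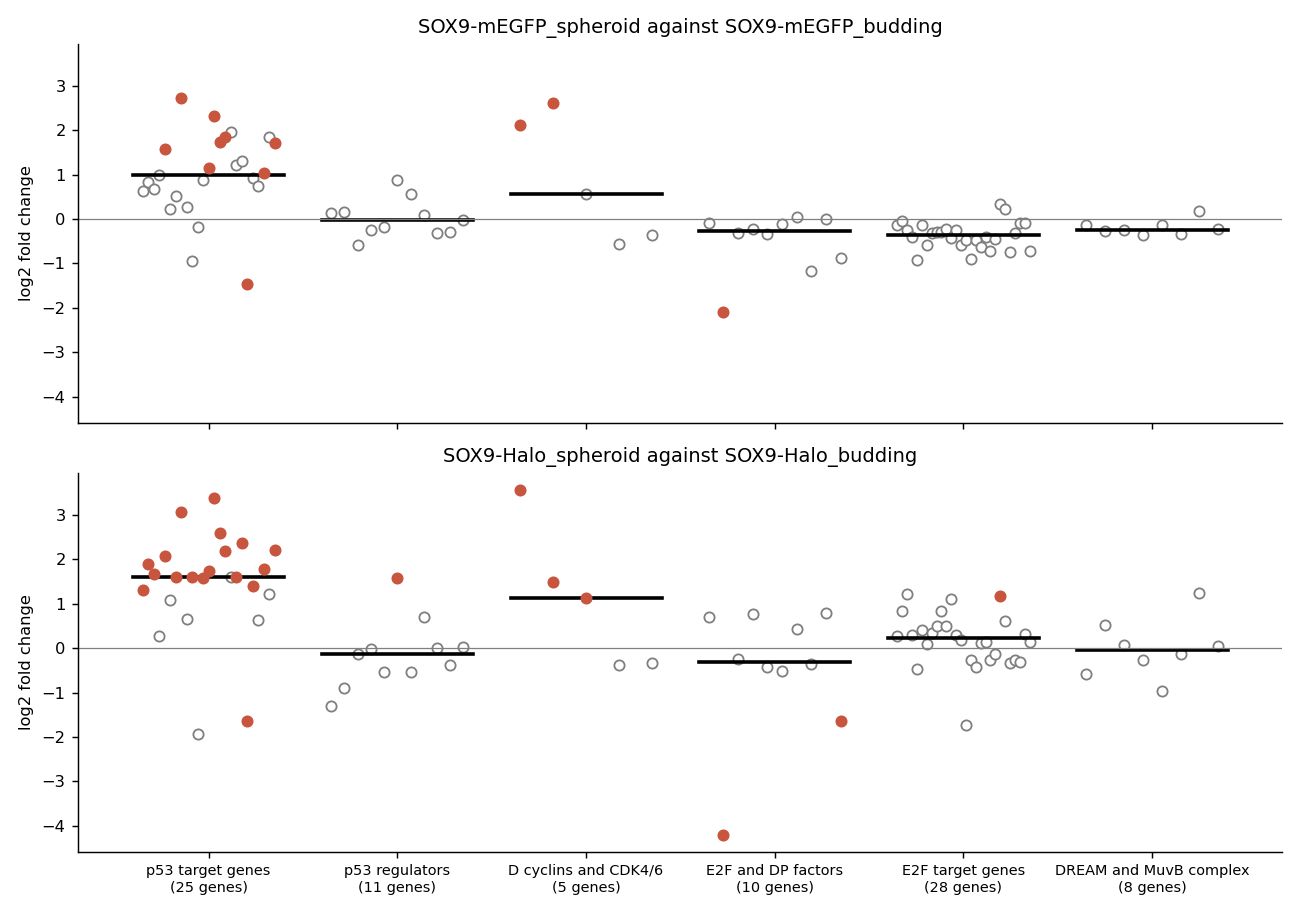
Log2 fold change from budding to spheroid (vertical axis) of each tested gene of 6 lists in the SOX9-mEGFP line (top) and the SOX9-Halo line (bottom), with filled points for called genes and a bar at the median of each list. The p53 targets have medians of 0.98 and 1.60 and the E2F targets of -0.36 and 0.22.

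Over the 15 libraries, the genes whose log2 level followed that of Cdkn2a most closely among 10994 compared were Cpne8 (Pearson r = 0.994), Vill (0.993) and Vamp5 (0.993). For the other INK4 genes the closest were Gapdh (0.903, Cdkn2b), Fgfbp3 (0.933, Cdkn2c) and Cdk5 (0.901, Cdkn2d). They were Wdfy1 for Cdkn1b (0.946), Zfp668 for Trp53 (0.945), Cep350 for Rb1 (0.947), Brip1 for Rbl1 (0.960) and Elf1 for Rbl2 (0.979). Among the 9 themselves, Cdkn1b and Rb1 were most alike (0.83), then Cdkn1b and Rbl2 (0.76). These values describe libraries of 5 conditions, in which GC content of a gene and library moved together, and Cdkn1b, Rb1 and Rbl2 are all GC-poor.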

How the data were processed

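Poly-A RNA of 15 organoid libraries, described as biological triplicates, was sequenced with 150-base reads. Reads were trimmed by the authors with cutadapt 4.5 and aligned with STAR to mm39. Those with a unique alignment were counted by HTSeq 2.0.2 (union mode, no strand). The deposited values used here are these whole-number counts per gene. The deposited table of normalized counts and the authors' comparison tables (mean counts, DESeq2 2.11.40.8 fold changes, errors and p-values) were not used, and 0 columns of values per library were unassigned.

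Counts were tested with edgeR 4.0.16 (R 4.3.3): TMM scaling, filterByExpr, 1 coefficient per condition over all 15 libraries, glmQLFTest and Benjamini-Hochberg adjustment over 17560 genes. Called genes passed 3 thresholds: adjusted p 0.01, fold 2, and 10 normalized counts on average. The same code was tested on simulated data. DESeq2 1.42.0 was an alternative, and the fit with the GC and length trend removed and the fit with 1 control library were chosen after seeing the data. Levels between genes were compared after division of the scaled reads by exon length. Positions are from GENCODE M39. Intervals of Cdkn2a ratios are exact binomial and cover counting error only.

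Depth was 28062722 to 40559766 counts per library (median 33491297). Left out were reads outside genes (1.83% to 6.09%) and reads on several genes (9.65% to 13.6%). Of 10 pairs of conditions, all same-numbered replicates deviated together with r over 0.1 in 1, SOX9-Halo_budding and SOX9-Halo_spheroid (r = 0.403, 0.234 and 0.344). Across all pairs of conditions 17 of 30 such values passed 0.1, among them 0.817 for replicate 2 of Halo-NLS and SOX9-Halo_budding. No label gives a pairing, and the main fit used none. A fit with the replicate number as a block over all 15 libraries was an alternative, which also applied it to conditions without this pattern. The members and all gene lists were chosen with earlier results of these data known. Named are all 9 members, the 3 most abundant tested genes of each list (all genes of lists of 5 or fewer), the 3 genes most alike each member by Pearson r among genes with at least 100 normalized counts, of which the first is given (for Cdkn2a all 3), and tested genes within 1 Mb of Cdkn2a, and any other name was chosen after its value was seen.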

Additional observations from a re-analysis of the deposited data

How the results depend on the processing

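Cdkn2a was called in the spheroids under all alternatives run, and the counts of called genes among the 9 for SOX9-mEGFP_spheroid against SOX9-mEGFP_budding (1) and SOX9-Halo_budding against SOX9-mEGFP_budding (0) did not change. In SOX9-mEGFP_budding against Halo-NLS the count of 1 became 0 with no low-count filter, 0 in a fit of only the libraries compared (where Cdkn2a did not pass the filter), 0 with the GC and length trend removed, 0 with only Halo-NLS replicate 1 as control and 2 with DESeq2. In SOX9-Halo_budding against Halo-NLS the count of 0 became 1 with library sizes alone, with no filter, with DESeq2 and with the replicate block. In SOX9-mEGFP_spheroid against Halo-NLS the count of 2 became 1 with only the libraries compared and 1 with only Halo-NLS replicate 1, and in SOX9-Halo_spheroid against Halo-NLS the count of 3 became 1 with only the libraries compared and 1 with the trend removed. From budding to spheroid in the SOX9-Halo line the count of 1 became 2 with no filter, with only the libraries compared and with only Halo-NLS replicate 1, and 3 with the trend removed. Between the spheroids 1 became 2 with no filter and 2 with only the libraries compared, and for the difference between the lines 0 became 1 with DESeq2, with only the libraries compared and with the replicate block. The block changed no call of the 9 genes other than Rbl2 in SOX9-Halo_budding against Halo-NLS (1.35) and Cdkn2c for the difference between the lines (1.30). Leaving out 1 library at a time gave 0 to 4, 0 to 3, 1 to 3 and 2 to 3 called genes in the 4 comparisons with Halo-NLS (in the order above), 1 to 2 from budding to spheroid in the SOX9-Halo line and 0 to 1 for the difference between the lines. The cause of these changes was not tested.

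Log2 differences that changed sign were all uncalled. With library sizes alone these were Cdkn2c in SOX9-mEGFP_budding (0.088), Cdkn2b in SOX9-mEGFP_spheroid (0.10) and Trp53 in SOX9-Halo_spheroid (0.033), each against Halo-NLS. With the trend removed they were, against Halo-NLS, Cdkn2c in SOX9-Halo_budding (-0.32), Cdkn1b (-0.046), Rb1 (-0.069) and Rbl1 (-0.31) in SOX9-mEGFP_spheroid, Cdkn1b (-0.26) and Rbl1 (-0.12) in SOX9-Halo_spheroid, then Rbl2 within the SOX9-mEGFP line (-0.016), and Cdkn2a (-0.086) and Rbl2 (0.13) between the spheroids. With only Halo-NLS replicate 1 they were Cdkn2c (0.15), Trp53 (0.038) and Rb1 (-0.062) in SOX9-mEGFP_budding, Rb1 in SOX9-Halo_budding (-0.12), Rb1 (-0.39) and Rbl1 (-0.39) in SOX9-mEGFP_spheroid, and Cdkn1b (-0.29), Trp53 (0.077) and Rbl1 (-0.35) in SOX9-Halo_spheroid. Leaving out 1 library moved Cdkn2b between -0.55 and 0.091 and Cdkn2c between -0.32 and 0.080 in SOX9-mEGFP_budding against Halo-NLS, Cdkn1b between -0.15 and 0.38 and Rb1 between -0.90 and 0.65 in SOX9-Halo_spheroid against Halo-NLS, Cdkn2b between -0.31 and 0.39 within the SOX9-mEGFP line, Trp53 between -0.040 and 0.42 within the SOX9-Halo line, and Cdkn2a (-0.13 to 0.24), Rbl1 (-0.091 to 0.13) and Rbl2 (-0.23 to 0.036) between the spheroids.

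Over all genes, SOX9-mEGFP_budding against Halo-NLS had 484 calls, 1225 with DESeq2, 1991 with no filter, 103 with only the libraries compared and 2184 without Halo-NLS replicate 1. SOX9-Halo_budding had 659, 1503, 2357, 5 and 2370. Library sizes alone moved the median log2 difference from Halo-NLS by 0.23 to 0.30. The low counts of Cdkn2a outside the spheroids limit its ratios there.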
